A study of Mus musculus with 19 samples.

Results

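The extracellular matrix genes described here are 41 listed collagens, matrix glycoproteins, proteoglycans, matrix enzymes and enzyme inhibitors, with some surface and cytoskeletal genes of the stromal cells that make them. They were followed across 19 Affymetrix mouse expression arrays of fat and pancreatic lymph nodes (PLNs) of NOD mice. Each gene was read from 1 probe set, the one with the highest mean log2 signal over the arrays of the tissue, and 40 of the 41 were analysed in each tissue, out of 18193 genes; 1 listed gene was not analysed here. Signals are MAS5 values on a linear scale, with no fixed unit.

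All mice were female NOD (NOD/LtJx) mice, a strain prone to autoimmune diabetes, on a standard diet and light cycle. NOR arrays came from normal, non-diabetic mice (2 of fat, 4 of PLNs), DIA arrays from mice with new onset diabetes (2 and 2), AAT arrays from new onset diabetic mice given alpha1 antitrypsin, a circulating protease inhibitor (2 and 4), and PM arrays from such mice given Power Mix, a regimen of an IL2.Ig fusion protein, an antagonist-type mutant IL15.Ig and rapamycin (3, fat alone). Every label also carries a protocol for streptozotocin given after anti-TNF-α, which the methods of the study assign to islet graft recipients. The labels name no fat depot, and the methods name epididymal fat for the insulin signalling work and RNA, although the labels give every mouse as female. Age, interval after treatment and whether each array is a separate mouse were not found for the arrays, so p-values capture only how far these samples spread, which may be technical. Mean log2 signal of 6 adipocyte markers was 12.5 to 14.67 in fat and 6.67 to 10.26 in PLNs, and that of 7 lymphocyte markers was 5.77 to 8.61 in fat and 11.5 to 12.81 in PLNs.

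Fibroblasts and related stromal cells secrete most of the fibrillar collagens, which the chaperone Serpinh1 helps to fold and which Lox and Loxl1 cross-link outside the cell. Adipocytes sit in a mesh of collagen VI and a basement membrane of collagen IV, laminins and nidogen, and the matrix of fat is known to thicken in obesity and inflammation. Metalloproteinases such as Mmp2 and Mmp14 cut the matrix, and the Timp proteins inhibit them. In a lymph node, fibroblastic cells lay down thin collagen fibres along which lymphocytes move.

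In fat, most matrix transcripts were highest in DIA or AAT arrays and lowest in PM arrays. Of the 40 members, 25 had their highest group mean in DIA, 13 in AAT, 2 in NOR and 0 in PM, while 31 had their lowest group mean in PM. Single arrays carried much of this order: 22 of the 40 had their highest fat signal in DIA 2, and 22 their lowest in PM 2. Between the 2 DIA arrays, 35 of 40 members were higher in DIA 2, and between the 2 NOR arrays 33 were higher in NOR 2.

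**Figure D1:**
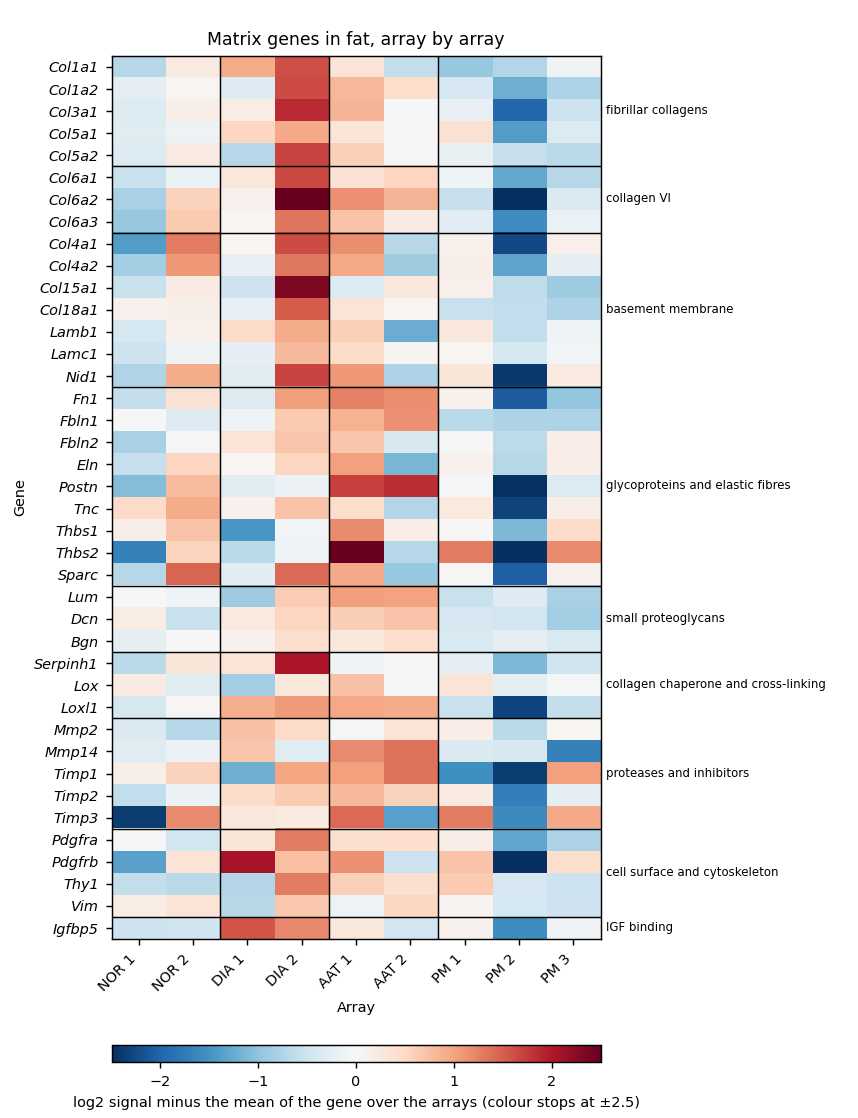
Log2 signal of the 40 matrix genes in each fat array, minus the mean of the gene over the 9 arrays, in rows by role and in columns by array; colour stops at 2.5 in either direction. The columns DIA 2 and AAT 1 are mostly above the gene means and PM 2 mostly below, and arrays of 1 group differ from each other.

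The first comparison asked how matrix transcripts differed at diabetes onset. In DIA against NOR fat, 35 of 40 members lay above the median change of all 45037 probe sets (49.7% of all genes did), with a median of 0.79 on the log2 scale. Log2 changes are given relative to that median, which was -0.11 here. By the thresholds of the study, more than a 2-fold change with p no higher than 0.05 before adjustment, 6 members were higher and 0 lower, beside 3.24% of all genes higher and 3.62% lower. In limma, 0 members passed an adjusted p of 0.05 (smallest 0.417), and 6 had an unadjusted p under 0.05, beside 8.84% of all genes. No gene of the array passed the adjusted threshold. In 15 members both DIA arrays lay above both NOR arrays, beside 17.2% of all genes, and in 1, Thbs1, both lay below, beside 24.1%. The count of 6 became 14 without DIA 1, 3 without DIA 2 and 2 without NOR 1. In bulk tissue, fewer cells of a type and less RNA per cell cannot be told apart.

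By role, all 5 fibrillar collagens and all 3 collagen VI chains lay above the median of all probe sets, with median changes of 1.07 and 1.43. The 7 basement membrane genes lay between 0.54 and 1.19, and none of them passed the thresholds of the study. The 9 glycoproteins and elastic fibre genes had a median of 0.32, from -1.08 for Thbs1, a thrombospondin, to 1.05 for Fbln2, and none passed.

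Col1a1 encodes the main chain of type I collagen. Its signal was 321.8 and 620.8 in NOR, 1005 and 1625 in DIA, 658 and 347.4 in AAT, and 276, 320.6 and 495.5 in PM. Both DIA arrays lay above every other fat array. The log2 change in DIA against NOR was 1.62 (SE 0.51, adjusted p = 0.451 in limma), in AAT against DIA -1.37 (SE 0.51, adjusted p = 1) and in PM against DIA -2.01 (SE 0.46, adjusted p = 0.35). The first no longer passed without NOR 1 (1.02) or DIA 2 (1.19), and the second without DIA 2 (-0.95) or AAT 2 (-0.8). A second, dimmer Col1a1 probe set changed by 0.05 in AAT against DIA and by -3.4 in PM against DIA.

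Serpinh1, also called Hsp47, is the collagen chaperone of the endoplasmic reticulum. Its signal was 1274 and 2510 in NOR, 2542 and 8292 in DIA, 1926 and 2037 in AAT, and 1713, 936.5 and 1436 in PM. DIA 2 stood far above the rest, and DIA 1 was barely above NOR 2. The log2 changes were 1.47 (SE 0.52) in DIA against NOR, -1.16 (SE 0.52) in AAT against DIA and -1.95 (SE 0.48) in PM against DIA, and each passed the thresholds of the study. Without DIA 2 they were 0.53, -0.24 and -1.01, and none of the 3 passed. The first no longer passed without NOR 1 either, and the second without AAT 1, AAT 2 or PM 3, and neither did with median centring or without the variance trend; the second was also lost with the replicate block and with the 40th percentile filter. Its second probe set gave 0.85, -0.04 and -1.68.

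Igfbp5 binds insulin-like growth factors and is held in the matrix. It is also on the list of counter-regulated fat genes that the study drew from these samples, so its direction here is not independent evidence. Its signal was 2332 and 2364 in NOR, 9894 and 7701 in DIA, 4021 and 2405 in AAT, and 3616, 1118 and 3128 in PM. The DIA arrays did not overlap any other group. Its change was 2.00 (SE 0.50) in DIA against NOR, -1.44 (SE 0.50) in AAT against DIA and -2.05 (SE 0.45) in PM against DIA. The AAT change no longer passed without DIA 1 (-1.3) or AAT 2 (-0.96). In the other 2 comparisons it passed with any 1 array left out, where a group cut to 1 array is assumed to vary like the other groups. A second probe set gave -0.07, -0.05 and 0.34.

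Loxl1, an oxidase that cross-links elastic fibres, had AAT signals within the range of its DIA signals. Its signal was 616.7 and 847 in NOR, 1562 and 1739 in DIA, 1619 and 1574 in AAT, and 568.2, 169.3 and 547.8 in PM. The change was 1.30 (SE 0.53) in DIA against NOR, 0.00 (SE 0.53) in AAT against DIA and -2.28 (SE 0.48, adjusted p = 0.325) in PM against DIA.

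Col6a1, a chain of the collagen VI that surrounds adipocytes, had signals of 2016 and 2655 in NOR, 3601 and 9336 in DIA, 3793 and 4303 in AAT, and 2745, 1224 and 1817 in PM. Mmp2, gelatinase A, had signals of 1185 and 936.7 in NOR, 2555 and 2139 in DIA, 1493 and 1936 in AAT, and 1716, 962.1 and 1570 in PM. For both genes the DIA arrays were above the NOR arrays, with changes of 1.43 (SE 0.47) and 1.26 (SE 0.35). Col6a1 no longer passed without NOR 1 (1.11) or DIA 2 (0.66), nor Mmp2 without NOR 2 (1.29). A second Mmp2 probe set changed by 0.12.

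**Figure D2:**
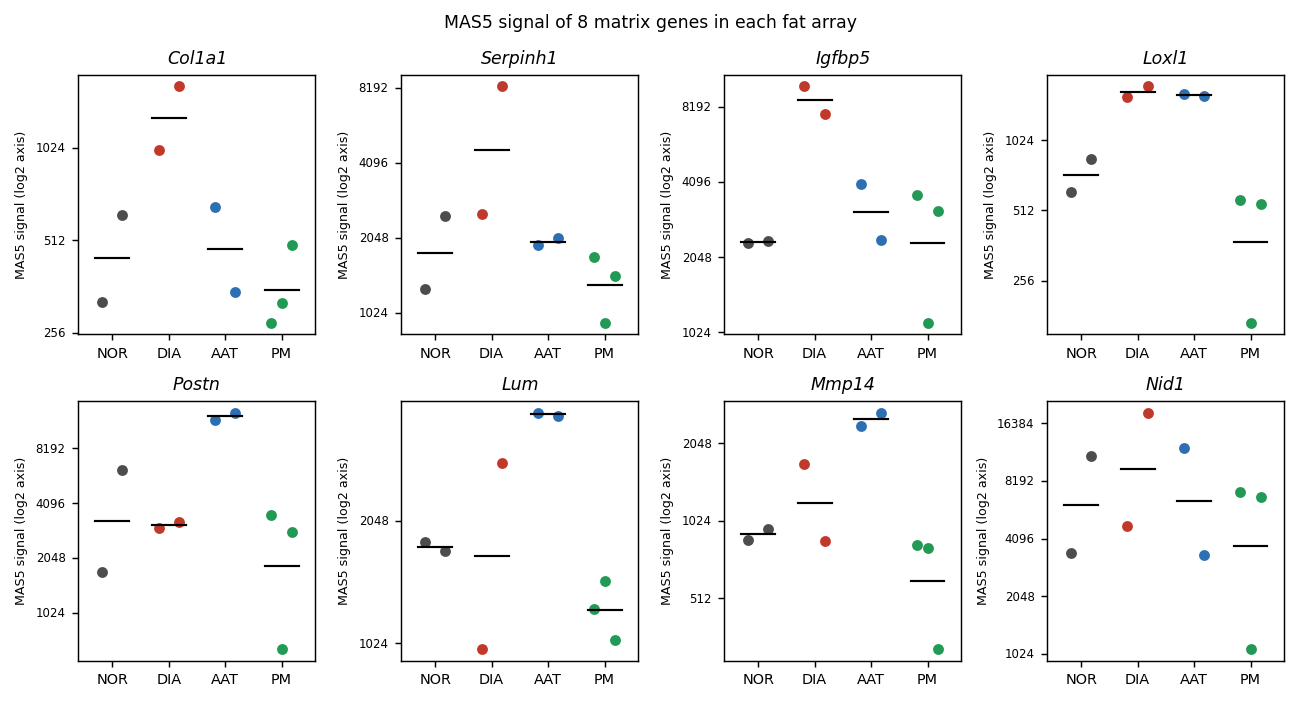
MAS5 signal (log2 axis) of 8 matrix genes in each fat array; points are arrays and bars are geometric group means. Col1a1, Serpinh1 and Igfbp5 are highest in DIA, Loxl1 is high in DIA and AAT, Postn, Lum and Mmp14 are highest in AAT, and Nid1 overlaps between all groups.

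The promoters of 4 members are shown because Col1a2, Col3a1, Serpinh1 and Igfbp5 were each lower in PM than in DIA fat and lie in 3 of the role groups. RefSeq (GRCm38.p6) promoter windows were found for 27 of the 40 members, and the 250 bases before the start are printed, 5′ to 3′, with capitals marking the letters TATAAA of a TATA box, the letters CCAAT of a CCAAT box, or the letters GGGCGG of a GC box, searched on either strand.
Col1a2 (chr6:4505368-4505617, plus strand): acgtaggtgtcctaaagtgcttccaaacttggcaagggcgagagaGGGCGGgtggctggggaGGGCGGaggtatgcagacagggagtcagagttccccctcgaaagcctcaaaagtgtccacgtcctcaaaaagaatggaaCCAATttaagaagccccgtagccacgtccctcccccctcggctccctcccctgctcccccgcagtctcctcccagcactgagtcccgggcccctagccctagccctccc
Col3a1 (chr1:45311288-45311537, plus strand): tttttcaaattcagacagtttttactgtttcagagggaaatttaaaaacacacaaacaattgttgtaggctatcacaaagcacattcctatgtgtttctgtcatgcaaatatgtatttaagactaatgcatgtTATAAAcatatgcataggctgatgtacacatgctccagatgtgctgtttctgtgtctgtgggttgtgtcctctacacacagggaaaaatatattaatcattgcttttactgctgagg
Serpinh1 (chr7:99353240-99353489, minus strand): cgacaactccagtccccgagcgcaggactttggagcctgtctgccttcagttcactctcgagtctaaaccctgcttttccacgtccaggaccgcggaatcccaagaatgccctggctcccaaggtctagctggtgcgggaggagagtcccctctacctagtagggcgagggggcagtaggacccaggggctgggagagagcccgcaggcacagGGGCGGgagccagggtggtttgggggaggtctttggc
Igfbp5 (chr1:72874866-72875115, minus strand): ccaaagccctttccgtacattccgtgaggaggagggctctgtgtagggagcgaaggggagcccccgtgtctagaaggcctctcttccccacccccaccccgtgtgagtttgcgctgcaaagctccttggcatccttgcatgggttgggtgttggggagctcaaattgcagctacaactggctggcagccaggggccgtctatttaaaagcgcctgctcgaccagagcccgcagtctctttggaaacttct
The sequence TATAAA was found in the windows of 5 of the 27 members, beside 12.4% of 32851 windows of all genes. CCAAT was found in 11 of 27 beside 33.8%, and GGGCGG (the GC box) in 16 of 27 beside 32.7%. A member with several windows counted once if any held the letters, whereas the percentages count windows, so the measures differ. The Col1a2 window holds 1 CCAAT at 109 bases before the start and 2 GGGCGG, the Col3a1 window holds 1 TATAAA at 117 bases, the Serpinh1 window 1 GGGCGG at 37 bases, and the Igfbp5 window none of these letters. No motif was shared by all 4. The window of Col6a1, also lower in PM than in DIA fat, was found but is not printed, and it holds none of these letters. Col4a1 and Col4a2, the paired chains of collagen IV, start 21 bases apart on opposite strands of chromosome 8. Their changes in DIA against NOR fat were 1.00 (SE 0.99) and 0.54 (SE 0.77).

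The second comparison asked how the matrix genes stood in AAT-treated fat. Against DIA the members split: 17 lay above the median change of all probe sets (53.4% of all genes did) and 23 below, with a median of -0.24. By the thresholds of the study, 4 were higher, beside 2.1% of all genes, and 3 lower (Igfbp5, Col1a1 and Serpinh1), beside 1.62%. In limma 0 passed an adjusted p of 0.05 (smallest 1), and 7 had an unadjusted p under 0.05, beside 5.01%. The count of 7 became 4 without AAT 1 and 2 without AAT 2, and the median turned to 0.45 without DIA 2 and to 0.32 without AAT 2.

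The 4 that were higher were Postn, Lum, Mmp14 and Thbs1. Postn encodes periostin, a matricellular protein of remodelling tissue, and its signal was 1709 and 6238 in NOR, 3006 and 3242 in DIA, 11810 and 12890 in AAT, and 3514, 645.3 and 2823 in PM. Both AAT arrays lay above all the others. The change was 2.03 (SE 0.73) against DIA and 2.05 (SE 0.73) against NOR.

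Lum, lumican, a small proteoglycan that spaces collagen fibrils, had signals of 1814 and 1721 in NOR, 990.7 and 2841 in DIA, 3770 and 3698 in AAT, and 1244, 1458 and 1040 in PM. Mmp14, a membrane-bound collagenase, had signals of 858.9 and 954.3 in NOR, 1697 and 850.1 in DIA, 2383 and 2688 in AAT, and 825.5, 799.7 and 325.4 in PM. In both genes the AAT arrays were above all the others. The changes in AAT against DIA were 1.2 (SE 0.43) for Lum and 1.12 (SE 0.48) for Mmp14. Lum was 0.4 without DIA 1 and 2.04 without DIA 2, and it no longer passed without DIA 1, AAT 1 or AAT 2. Postn stayed between 1.89 and 2.16 but no longer passed without any 1 of the DIA or AAT arrays. Thbs1, with a change of 1.49 (SE 0.64), overlapped the NOR arrays. Its second probe set changed by 0.32 (SE 0.43) in AAT against DIA and by -0.11 in DIA against NOR, and passed in neither.

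Against NOR, 37 of 40 members of AAT fat lay above the median of all probe sets (52.6% of all genes did), with a median change of 0.70. Fbln1, Mmp14, Postn and Lum passed the thresholds of the study upward and 0 downward, beside 2.42% and 2.17% of all genes. The other Fbln1 probe sets disagreed: 1 changed by 1.29 and passed, and 1 changed by -1.04 and passed downward. In limma 0 passed an adjusted p of 0.05 (smallest 0.93), with 4 at an unadjusted p under 0.05, beside 5.41%. The count of 4 became 2 without AAT 2 and 7 without PM 1 or PM 2, which enter through the shared variance. Smooth muscle and pericyte markers were also high in AAT fat: 6 of 7 passed the thresholds of the study upward against DIA, and their summed signal was 72950 to 101200 in AAT, 20230 to 23350 in DIA, 9891 to 39690 in NOR and 6541 to 20870 in PM, with no marker at 0. Their part in the matrix values was not tested.

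The third comparison asked the same of PM. In PM against DIA fat, 3 of 40 members lay above the median change of all probe sets (48.1% of all genes did) and 37 below, with a median of -1.19. By the thresholds of the study 16 were lower and 0 higher, beside 3.09% and 4.09% of all genes. They were 4 of 5 fibrillar collagens, 3 of 3 collagen VI chains, Col18a1, Fn1, Fbln1, Serpinh1, Loxl1, Mmp14, Timp2, Pdgfra and Igfbp5. In limma 0 passed an adjusted p of 0.05 (smallest 0.325), 19 had an unadjusted p under 0.05, beside 10.2%, and in 21 members all PM arrays lay below both DIA arrays, beside 12.5% of all genes. Leaving out DIA 2 reduced the 16 to 4, whereas leaving out PM 2, the lowest array, left 13.

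The role medians were -1.61 for the 5 fibrillar collagens, -1.81 for the 3 collagen VI chains and -1.95 for the 3 chaperone and cross-linking genes. Col3a1, the type III chain of thin fibres, had signals of 4214 and 6012 in NOR, 6050 and 19620 in DIA, 9626 and 5302 in AAT, and 4617, 1380 and 3670 in PM. DIA 1 was close to NOR 2, DIA 2 was by far the highest and PM 2 by far the lowest, and the change was -2.08 (SE 0.57). Col6a2 changed by -3.07 (SE 0.93), with a PM 2 signal of 126 against 1032 and 1195 in the other PM arrays.

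**Figure D3:**
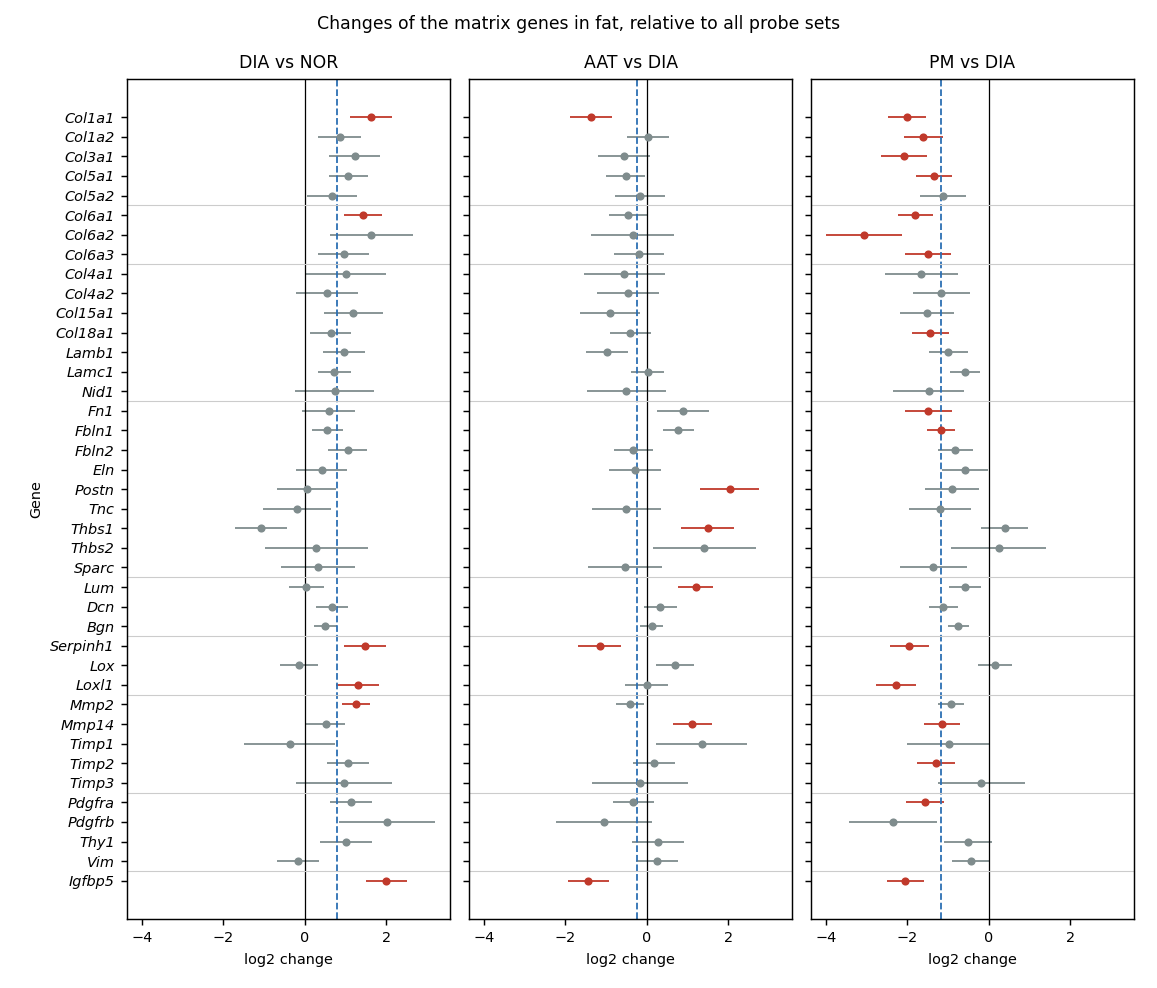
Log2 change of the 40 matrix genes in 3 comparisons of fat, relative to the median of all probe sets; points are estimates, lines are 1 SE, red marks the thresholds of the study and the dashed line is the median of the members (0.79, -0.24 and -1.19). The DIA arrays enter all 3 panels, so high DIA values move the panels in opposite directions.

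PM fat did not pass in any member against NOR: 0 were higher and 0 lower by the thresholds of the study, beside 1.72% and 0.704% of all genes, 0 passed an adjusted p of 0.05 in limma (smallest 1), and 0 had an unadjusted p under 0.05, beside 2.81%. The median was -0.45, with 7 of 40 members above the median of all probe sets (47.4% of all genes were), and it was 0.08 without NOR 2. Against AAT, 2 of 40 members of PM fat lay above that median (45.2% of all genes did), with a median of -0.98. By the same thresholds 13 passed downward and 0 upward, beside 2.34% and 2.4% of all genes. These 13 included Fbln1 (-1.92, SE 0.35), Mmp14 (-2.25, SE 0.44), Postn (-2.90, SE 0.67), Lum (-1.77, SE 0.39) and Loxl1 (-2.26, SE 0.48). The 2 other Fbln1 probe sets gave -1.46 and 0.46. In limma 0 passed an adjusted p of 0.05 (smallest 0.355), and 14 had an unadjusted p under 0.05, beside 5.77%. The count of 13 became 8 without AAT 1 and 8 without PM 2.

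The study defined counter-regulated transcripts as those that changed at diabetes onset and back under treatment. DIA against NOR and each treatment against DIA share the DIA arrays, so a high DIA value alone gives opposite signs. In fat 3 members met the thresholds of the study in DIA against NOR and in the opposite direction under both treatments, Col1a1, Igfbp5 and Serpinh1, beside 1.07% of all probe sets. Under PM alone Col6a1 and Loxl1 were added, 5 in all beside 3.38%. Loxl1 dropped out with quantile normalization, median centring, the replicate block, the percentile filter, no variance trend or the mean over probe sets. The 5 became 3 with median centring, beside 2.82% of all probe sets, and 2 (Col1a1 and Igfbp5) without the variance trend, beside 3.19%. All 5 stayed with a higher floor for low signals or a constant added before log2. The settings that follow concern both treatments together. Without NOR 1, or without DIA 2, only Igfbp5 met both conditions, without DIA 1 a set of 6 met them that held Col1a1 and Serpinh1 but not Igfbp5, and without AAT 2, with median centring or with the mean over all probe sets of a gene none did. With the actin ratio described next as a covariate, 10 other members met them, beside 5.26% of all probe sets (Col4a1, Sparc, Eln, Timp3, Postn, Thbs1, Thbs2, Tnc, Pdgfrb and Nid1), and none of these 3.

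Several measured features moved with these groups. The 3′ to 5′ signal ratio of the actin control probe sets, a sign of RNA quality or amplification, was 15.2 and 15.5 in DIA, 3.63 and 4.3 in NOR, 9.08 and 5.87 in AAT, and 5.93, 3.35 and 6.32 in PM. With that ratio as a covariate the median change of the members was -1.96 in DIA against NOR, 1.24 in AAT against DIA and 1.16 in PM against DIA, opposite in sign to those without it. Both DIA arrays had a higher ratio than every other fat array, so the ratio cannot be told apart from DIA against NOR, AAT or PM. The slope of that fit comes from differences within groups, such as 3.63 and 4.3 in NOR, and is carried to the gap around DIA.

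Cell type markers differed too. Summed signal of 8 macrophage markers was 6821 to 6867 in NOR, 13180 to 28180 in DIA, 10010 to 15640 in AAT and 10110 to 11350 in PM, and 4 of the 8 passed the thresholds of the study upward in DIA against NOR. Summed signal of 8 endothelial markers was 3023 to 30300 in NOR, 13400 to 20450 in DIA, 5343 to 29340 in AAT and 2174 to 17820 in PM, lowest in NOR 1, PM 2 and AAT 2. Nid1, nidogen, a linker of the basement membrane, was low in the same arrays: 3426 and 10990 in NOR, 4785 and 18600 in DIA, 12180 and 3374 in AAT, and 7162, 1086 and 6766 in PM. Summed signal of 4 mesothelial markers was 2248 to 3103 in NOR, 3181 to 3606 in DIA, 4995 to 5080 in AAT and 1889 to 2093 in PM, with no overlap between groups, and 3 of the 4 passed downward in PM against AAT. Summed signal of 6 adipocyte markers was 316100 to 494900 in NOR, 203400 to 333100 in DIA, 195700 to 303200 in AAT and 294700 to 335100 in PM, and that of 3 erythroid markers, of which 2 passed downward in DIA against NOR, was 2632 to 6622, 1065 to 1275, 1454 to 7544 and 2969 to 4085. No marker was at 0, and the part of these cells was not tested. For 6 epithelial markers the summed signal was 1772 to 3562 in NOR and 1873 to 3108 in DIA. It was 1750 to 11660 in AAT, highest of all fat arrays in AAT 2, and 1328 to 4855 in PM. Their part was not tested either. The 7 fibroblast markers used are all members and give no separate reading.

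The brightest member probe sets in fat were those of Vim, Dcn and Sparc, which does not rank the transcripts of different genes. Vim, vimentin, an intermediate filament of stromal and immune cells, had signals of 36630 and 40660 in NOR, 19860 and 51010 in DIA, 29350 and 45680 in AAT, and 33680, 23740 and 22290 in PM. Dcn, decorin, had signals of 24110 and 14470 in NOR, 24990 and 30600 in DIA, 32620 and 34770 in AAT, and 15890, 15330 and 11530 in PM. Sparc, a collagen-binding glycoprotein, had signals of 5818 and 25910 in NOR, 7924 and 25460 in DIA, 18200 and 4895 in AAT, and 9746, 2307 and 10240 in PM. None of the 3 passed the thresholds of the study in DIA against NOR, and Sparc differed more within NOR, DIA and AAT than between them.

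A wider list of 62 other matrix genes, 58 of them measured, had medians in the same order over 3 fat comparisons. In AAT against DIA its median had the opposite sign, 0.14 beside -0.24 for the members. The list holds Mrc2, which the study also gives as counter-regulated in fat, so Mrc2 is not independent evidence. In DIA against NOR the median of the 58 was 0.72, and 46 lay above the median of all probe sets (49.7% of all genes did). By the thresholds of the study 9 were higher and 0 lower, beside 3.24% and 3.62%. These included Tgfbi, a TGF-β-induced adhesion protein (2.25, SE 0.30), Fmod, fibromodulin (2.08, SE 0.45), Mfap2, a microfibril protein (2.39, SE 0.65), and Col5a3 (1.94, SE 0.60). In AAT against DIA their median was 0.14, with 4 higher and 2 lower, beside 2.1% and 1.62%, among them Ogn (1.11, SE 0.33), Aspn (1.96, SE 0.66) and Mgp (1.38, SE 0.43) upward and Col5a3 (-1.80, SE 0.60) downward. In PM against DIA it was -0.80, with 1 higher and 15 lower, beside 4.09% and 3.09%, among them Tgfbi (-2.10, SE 0.27), Efemp1 (-1.86, SE 0.40), Col5a3 (-2.33, SE 0.54) and Ogn (-1.25, SE 0.30). In limma 0 of the 58 passed an adjusted p of 0.05 in these 3 comparisons, with 9, 7 and 17 at an unadjusted p under 0.05, beside 8.84%, 5.01% and 10.2%.

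In PLNs the medians of the members in DIA against NOR and in AAT against DIA had the opposite sign to those in fat. In AAT against NOR the median was positive in fat (0.70) and in PLNs (0.57). In DIA against NOR PLNs, 13 of 40 lay above the median change of all probe sets (48.3% of all genes did) and 27 below. Their median was -0.37, smaller in size than the pooled SD of the member median between PLN arrays of a group (0.571). By the thresholds of the study 7 were lower, beside 7.83% of all genes, and 0 higher, beside 2.19%. In limma 0 passed an adjusted p of 0.05 (smallest 0.114), beside 0.033% of all genes called lower, and 7 had an unadjusted p under 0.05, beside 10.3%. In 8 members both DIA arrays lay below all NOR arrays, beside 14.5% of all genes. The count of 7 became 3, 4, 2 and 3 without NOR 1 to NOR 4 in turn, and 3 without DIA 2.

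Tnc, tenascin C, a matricellular glycoprotein of reticular fibres, had the smallest p. Its signal was 672.5, 1503, 890.4 and 899 in NOR, 71.64 and 113.3 in DIA, and 207.8, 2935, 437.7 and 954.4 in AAT. Both DIA arrays lay below all the others, and AAT spread across and beyond the NOR range. The change was -3.28 (SE 0.76, adjusted p = 0.114 in limma) in DIA against NOR, 3.56 (SE 0.76, adjusted p = 0.105) in AAT against DIA and 0.31 (SE 0.62) in AAT against NOR. A second and much dimmer Tnc probe set changed by -0.26 and 0.15 in the first 2.

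Col3a1 had signals of 3367, 1096, 3190 and 1687 in NOR, 1208 and 522 in DIA, and 1557, 9440, 4053 and 7016 in AAT. Its change was -1.30 (SE 0.62) in DIA against NOR, where DIA 1 overlapped the NOR range, and 3.09 (SE 0.62, adjusted p = 0.0989 in limma) in AAT against DIA. Its second probe set gave -0.52 and 2.28. Tnc and Col3a1 were the 2 members that met the thresholds of the study in both directions in PLNs, beside 2.96% of all probe sets. Col3a1 dropped out with median centring, with the replicate block, without the variance trend, and without NOR 1, NOR 3 or DIA 2. Its change in DIA against NOR was -1.02 without DIA 2 and -1.71 without DIA 1. Pdgfra joined them with quantile normalization, and neither Tnc nor Col3a1 remained with the mean over all probe sets of a gene.

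Fn1, fibronectin, had signals of 2673, 3082, 4317 and 3218 in NOR, 1453 and 1167 in DIA, and 1097, 3146, 1268 and 1802 in AAT. DIA lay below NOR (-1.22, SE 0.46), and 3 of the 4 AAT arrays stayed below NOR as well. The Fn1 change no longer passed with median centring, with the mean over its probe sets (-0.76) or without DIA 2 (-1.39). Col4a2 had signals of 709.4, 877.2, 957.6 and 798.3 in NOR, 796.9 and 79.53 in DIA, and 432.7, 930.4, 140.1 and 367.8 in AAT. Its change of -1.61 (SE 0.78) rested on DIA 2 and was -0.28 without that array. Col6a1 had signals of 820.9, 604.4, 1055 and 994.8 in NOR, 571.4 and 191.2 in DIA, and 319, 1126, 303.4 and 807 in AAT, with a change of -1.25 (SE 0.62). That change no longer passed without NOR 1, NOR 3 or NOR 4, and was -0.79 without DIA 2. Eln and Pdgfra were the other 2 that passed.

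**Figure D4:**
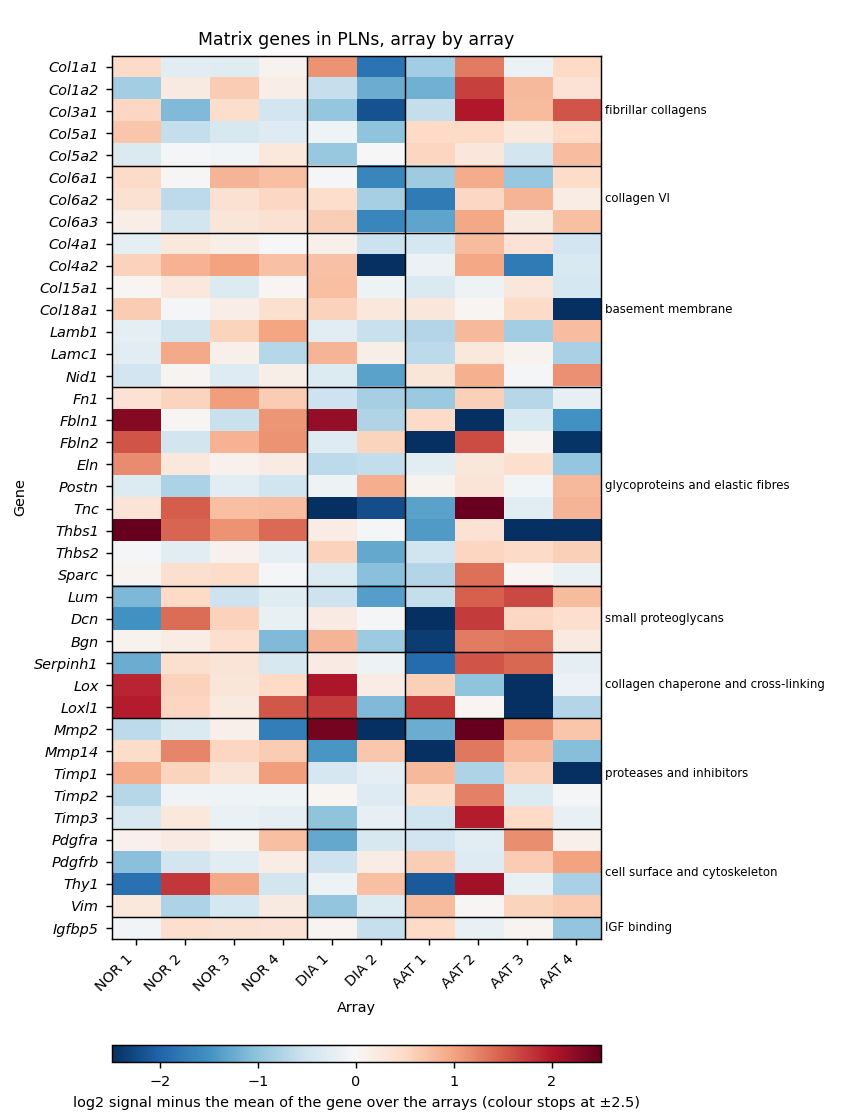
Log2 signal of the 40 matrix genes in each PLN array, minus the mean of the gene over the 10 arrays, in rows by role and in columns by array; colour stops at 2.5 in either direction. DIA 2 holds the lowest signal of 13 genes and AAT 2 the highest of 16, and AAT 1 is low for many genes that are high in AAT 2.

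In AAT against DIA PLNs the median was 1.02 relative to all probe sets, with 33 of 40 members above (58.1% of all genes were). The median change of all probe sets was -0.58 in this comparison, so the median of the members as measured was 0.44, and the median of all genes read from 1 probe set lay at 0.26 on the relative scale. By the thresholds of the study 6 were higher and 0 lower, beside 7.59% and 8.57% of all genes, in limma 0 passed an adjusted p of 0.05 (smallest 0.0989), and 6 had an unadjusted p under 0.05, beside 16.6%. The count of 6 became 11 without AAT 1. The 6 were Col3a1, Tnc, Nid1, Lum, Vim and Col1a2.

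Nid1 had signals of 952.4, 1389, 1053 and 1460 in NOR, 1040 and 522.4 in DIA, and 1638, 2443, 1288 and 2911 in AAT. Its change was 2.00 (SE 0.47), with no overlap between AAT and DIA, though AAT 3 lay within the NOR range. Lum had signals of 206.5, 635.8, 313.8 and 363.4 in NOR, 311.4 and 172.7 in DIA, and 295.6, 1268, 1409 and 776.3 in AAT, a change of 2.37 (SE 0.66). In Lum, 3 of 4 AAT arrays were above all other PLN arrays and AAT 1 was not. Vim had signals of 33430, 16440, 20550 and 32720 in NOR, 14190 and 22180 in DIA, and 48550, 28650, 41220 and 43750 in AAT, a change of 1.75 (SE 0.45). Every AAT array of Vim lay above both DIA arrays, but its change was 0.54 and no longer passed after quantile normalization, and was 1.15 and no longer passed without DIA 1. Without DIA 2, Nid1 (1.88) and Lum (2.32) no longer passed.

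**Figure D5:**
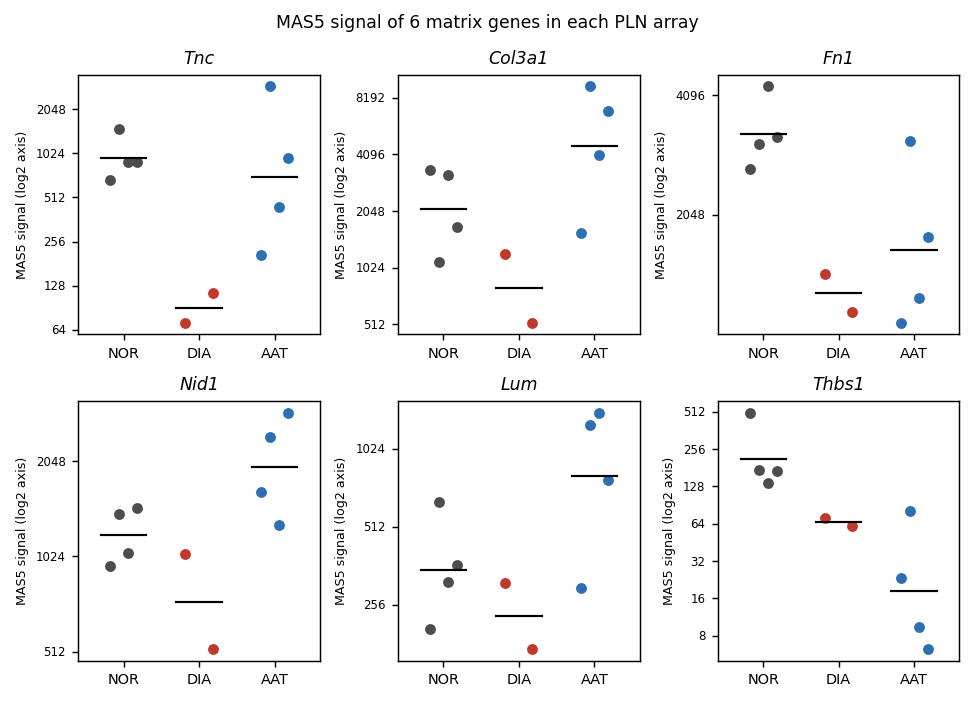
MAS5 signal (log2 axis) of 6 matrix genes in each PLN array; points are arrays and bars are geometric group means. Tnc is lowest in DIA, Col3a1, Nid1 and Lum are highest on average in AAT, Fn1 is highest in NOR, and Thbs1 is lowest on average in AAT.

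Against NOR, AAT PLNs had 30 of 40 members above the median of all probe sets (57.3% of all genes were), with a median of 0.57; that median of all probe sets was itself -0.72, and the median of the members as measured was -0.16. By the thresholds of the study 2 were higher (Col3a1 and Lum) and 2 lower (Thbs1 and Fbln1), beside 5.01% and 15.7% of all genes, and 5 had an unadjusted p under 0.05, beside 23%. The count of 4 became 9 without AAT 1, 7 without AAT 2, and 2 without NOR 4, AAT 3 or AAT 4. Thbs1, thrombospondin 1, was the one member past an adjusted p of 0.05 in limma, beside 1.84% of genes called lower and 1.81% higher: its signal was 505.5, 173.1, 137.7 and 169.2 in NOR, 71.79 and 61.28 in DIA, and 23.54, 80.45, 9.359 and 6.238 in AAT, a change of -2.82 (SE 0.96, adjusted p = 0.0452). All AAT arrays were below all NOR arrays. These signals are dim, a second dim probe set changed by 0.46, and the adjusted call was lost when any 1 NOR array, AAT 3 or AAT 4 was left out.

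The brightest member probe sets in PLNs were those of Vim, Sparc and Col1a2. Sparc had signals of 3997, 5035, 5243 and 3709 in NOR, 3042 and 1848 in DIA, and 2304, 9923, 3986 and 3421 in AAT. Col1a2, the second chain of type I collagen, had signals of 1574, 3341, 4427 and 3213 in NOR, 1909 and 1207 in DIA, and 1243, 9371, 5019 and 3671 in AAT, a change of 1.92 (SE 0.60) in AAT against DIA. AAT 2 was the highest of all PLN arrays for both genes, and AAT 1 was among the lowest.

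Of the 58 other matrix genes, 9 were lower and 0 higher in DIA against NOR PLNs by the thresholds of the study, beside 7.83% and 2.19% of all genes, among them Fmod (-2.64, SE 0.60), Adam12 (-2.19, SE 0.61), Adamts1 (-2.14, SE 0.63) and Dpt, dermatopontin (-2.04, SE 0.62). In AAT against DIA 9 were higher and 5 lower, beside 7.59% and 8.57%, with a median of 0.49 that was -0.10 as measured, and the higher ones included Fmod (3.74, SE 0.60, adjusted p = 0.0462 in limma), Dpt (3.61, SE 0.62), Ogn (3.99, SE 0.76) and Sparcl1 (3.97, SE 0.87). Fmod was the one of the 58 past an adjusted p of 0.05, beside 0.181% of all genes called higher and 0.022% lower.

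Other features also moved with the PLN groups. Summed signal of 6 pancreatic acinar markers was 383.3 to 1574 in NOR, 1049 to 13700 in DIA and 459.4 to 263500 in AAT, highest in AAT 3 and DIA 1. Without those 2 arrays 9 members passed the thresholds of the study in DIA against NOR and 10 in AAT against DIA. The shares of all genes past them in that fit were not computed. Summed signal of 6 adipocyte markers was 3445 to 7174 in NOR, 2471 to 3961 in DIA and 8571 to 37030 in AAT, and 3 of the 6 passed upward in AAT against DIA. Summed signal of 8 macrophage markers was 34270 to 55100 in NOR, 50670 to 66990 in DIA and 56180 to 103100 in AAT, and 4 of the 8 passed upward. No marker was at 0, and the part of attached fat or other cells in the matrix values was not tested. The 3′ to 5′ ratio of the Gapdh control probe sets was 5.55 to 8.01 in NOR, 10.8 and 10 in DIA, and 7.43, 20.6, 8.3 and 25 in AAT.

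Between normal tissues, 8 members were higher in fat than in PLNs at an adjusted p under 0.05 in limma (Lum, Dcn, Lox, Mmp2, Timp2, Postn, Igfbp5 and Nid1), beside 10.3% of all probe sets, and 1, Thy1, a surface protein of fibroblasts and mouse T cells, was lower, beside 11.9%. At the median of the members, the change at diabetes onset was 1.13 higher in fat than in PLNs. The AAT response was 1.22 lower (-1.22). These values are relative to the median of all probe sets, which was 0.1 and 0.48. With 1 array left out they ranged from 0.49 to 1.76 and from -1.93 to -0.37. In both comparisons limma called 0 members at an adjusted p of 0.05 (smallest 0.308 and 0.437). At an unadjusted p under 0.05 there were 6 and 6, beside 8.87% and 8.14% of all probe sets.

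Most members, 32 of 40, had more than 1 probe set, and the choice of probe set bears on the direction. In fat 8 of these 32 had a probe set of the opposite direction in DIA against NOR, 12 in AAT against DIA and 11 in PM against DIA. In PLNs 14 did in DIA against NOR and 13 in AAT against DIA.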

How the data were processed

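The study measured transcripts in fat and PLNs of NOD mice on Affymetrix mouse expression arrays after Trizol extraction and NuGEN amplification. The deposited values are MAS5 signal intensity on a linear scale, which the authors scaled so that the trimmed mean (2% off each tail) of every array is 500; their MAS5 version was not given in the sources used here. The methods of the study name RMA and RankProd; RMA values were not used here. Here values under 1 were set to 1 and log2 was taken. Limma 3.58.1 (R 4.3.3; trend on the mean) was fitted per tissue, with all its groups, and p-values were adjusted by Benjamini and Hochberg over 45037 probe sets; 64 control probe sets were left out. Of these, 34945 name 1 gene, 932 several and 9160 none. Log2 changes are relative to the median of all probe sets; p-values belong to the change as measured. Members and lists were chosen with earlier results of these data known. Per main comparison, the 5 members and 4 other matrix genes of smallest p, and the 3 brightest members per tissue, were named. The scripts were tested on simulated data. The number of arrays limits the precision. The plots used matplotlib and the alternatives are given in the closing section.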

Additional observations from a re-analysis of the deposited data

Results flagged for a closer look

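In groups of 4 PLN arrays, 1 array stood apart from the others for 8 of 80 combinations of member and group examined. The rule flags about 1 in 20 of independent, normally spread values. Genes read on the same array are not independent, and the share of all genes flagged was not computed, so no excess can be read from the 8. In NOR, Col6a2 was 313.7 in NOR 2, beside 640.3 to 706.8 in the other 3. NOR 1 stood apart for 4 genes: Eln at 1832, beside 877.6 to 969.6; Lox at 301.3, beside 98.74 to 119.5; Timp2 at 935.2, beside 1421 to 1433; and Igfbp5 at 747.7, beside 1009 to 1049. In AAT, Col5a1 was 740 in AAT 3, beside 871.9 to 879.2. Col18a1 was 27.15 in AAT 4, beside 194 to 263.9, and Thbs2 was 279.6 in AAT 1, beside 546.7 to 597. Eln passed the thresholds of the study in DIA against NOR PLNs, and the other 7 genes passed in no PLN comparison. The fat groups hold 2 or 3 arrays and were not examined in this way.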

How the results depend on the processing

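For the settings below, the share of all genes past the same thresholds was not computed, so the counts are of members alone. The number of arrays, 2 to 4 a group, limits every comparison, and leaving out 1 array moved most counts. Over these omissions, members past the thresholds of the study ranged in fat from 2 to 14 (DIA against NOR), 2 to 7 (AAT against DIA), 4 to 19 (PM against DIA), 2 to 7 (AAT against NOR), 0 to 2 (PM against NOR) and 8 to 14 (PM against AAT). In PLNs they ranged from 2 to 7 (DIA against NOR), 5 to 11 (AAT against DIA) and 2 to 9 (AAT against NOR), and members past an adjusted p of 0.05 from 0 to 1, 0 to 2 and 0 to 3. Normal fat against normal PLNs gave 3 to 8. The lowest of these came without fat NOR 2. Median changes ranged from 0.11 to 1.32, -0.67 to 0.45 and -1.64 to -0.69 in DIA against NOR, AAT against DIA and PM against DIA fat.

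With the actin ratio as a covariate in fat, the median changes were -1.96 (DIA against NOR), 1.24 (AAT against DIA), 1.16 (PM against DIA) and -0.54 (AAT against NOR). With the covariate, opposite changes under both treatments rose from 1.07% to 5.26% of all probe sets. That fit put 13, 14, 14 and 14 members past the thresholds of the study in DIA against NOR, AAT against DIA, AAT against NOR and PM against NOR, and 1 past an adjusted p of 0.05 in each of the first 2 and in PM against DIA. In it DIA against NOR gave -1.71 for Igfbp5, -0.15 for Mmp2, -0.57 for Col1a1, -0.53 for Col6a1 and -0.64 for Serpinh1; AAT against DIA gave 0.53 for Igfbp5; and PM against DIA gave 0.56 for Loxl1 and 0.96 for Igfbp5. In the comparisons with DIA, whose ratios lay above those of all other fat arrays, this fit cannot separate the ratio from the group. The cause was not tested. With the Gapdh ratio in PLNs, 8 members passed the thresholds in AAT against NOR, and past an adjusted p of 0.05 there was 1 in DIA against NOR and 0 in AAT against NOR.

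Median centring of the arrays gave 1 member past the thresholds in AAT against DIA fat, 1 in DIA against NOR PLNs, 13 in AAT against DIA PLNs and 13 in AAT against NOR PLNs, and 0 at an adjusted p of 0.05 in the last and 5 between normal tissues. Quantile normalization gave a median of -0.08 and 0 adjusted calls in AAT against NOR PLNs, and 14 between normal tissues. Without the trend of the variance, 3, 2, 2 and 8 members passed in fat (DIA against NOR, AAT against DIA, AAT against NOR, PM against AAT), 2 and 1 in PLNs (DIA against NOR, AAT against NOR), with 0 adjusted calls in the last and 5 between normal tissues. With the mean over the probe sets of a gene, 3 passed in AAT against DIA fat, 4 in DIA against NOR PLNs and 2 in AAT against DIA PLNs, with 0 adjusted calls in AAT against NOR PLNs. Fitting only the 2 groups compared gave 8 in AAT against NOR fat and 1 adjusted call in DIA against NOR PLNs. A filter at the 40th percentile of the mean, which tests fewer probe sets, gave 2 and 0 in AAT against NOR PLNs.

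Same-numbered arrays correlated in their deviations from the group means at -0.26 to 0.29 in fat. In PLNs those numbered 1 or 2 correlated at 0.17 to 0.28 and those numbered 3 or 4 at -0.04 and 0.01, and 4 of 8 NOR and AAT arrays correlated best with their own number, so the numbers were not taken to pair the arrays. The replicate block gave 2 members in PM against NOR fat, 1 adjusted call in DIA against NOR PLNs and 3 in AAT against NOR PLNs. Chosen after seeing the data, omission of fat NOR 1 and PM 2, lowest in endothelial markers, gave 3 members in DIA against NOR. Omission of PLN DIA 1 and AAT 3, highest in acinar markers, gave 10 in AAT against DIA, and 2 with 0 adjusted calls in AAT against NOR. Over settings other than omission of single arrays, the other 260 member counts and medians stayed within 1.5 times or within the spread of arrays. That spread, the pooled SD of the member median between arrays of a group, was 0.951 in fat and 0.571 in PLNs. It exceeds the fat medians of 0.79 (DIA against NOR) and -0.24 (AAT against DIA). In PLNs it exceeds the median of -0.37 (DIA against NOR) in size. A change of sign in these comparisons could therefore count as unchanged. Counts of 0 in both settings also counted as unchanged, so the 260 are no measure of stability. For single genes 231 values kept direction and threshold, and 46 more kept their direction but no longer passed.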
